A study of Arabidopsis thaliana with 8 samples.

Results

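The comparison described here sets the base of the inflorescence stem of the Arabidopsis thaliana cov mutant against the same part of wild type Ler-0 plants. It uses 4 of the 8 arrays of the series, 2 from cov bases and 2 from wild type bases, which were chosen by their labels, and takes in every probe set of the ATH1 array. The other 4 arrays, 2 from cov tips and 2 from wild type tips, enter the same fit and are described only beside a base result. All plants were at growth stage 6.10 and grew on compost at 22 °C, 65% humidity and 24 hours of light, with Ler-0 from stock NW20. The labels give neither the allele nor the genetic background of cov, so genotype and background cannot be told apart. They also do not say whether the 2 arrays of a group came from separate plants, and p-values measure the spread between these arrays, which may be technical.

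COV1 encodes an integral membrane protein, and in its mutant vascular tissue spreads around the stem into regions that in wild type separate the bundles. At the base of a growing stem, elongation has largely ended, and xylem and interfascicular fibres lay down secondary walls of cellulose, xylan and lignin. Nearer the tip, cells still divide, expand and build the cuticle. COV1 and its relatives had no named probe set in the annotation used here, so the label cov could not be set against the level of the gene itself.

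The label of the tissue was checked against markers. The secondary wall gene IRX15 had a signal of 260.2 and 385 in cov bases, against 829.5 and 647 in wild type bases, and 31.1 and 23.6 in cov tips, against 20.8 and 19.9 in wild type tips. All 4 bases thus lay far above all 4 tips. Of the markers fixed for epidermis, phloem, xylem vessels and starch sheath, none had a named probe set. AMS, the only flower and anther marker with one, had a signal of 5.4 and 10.7 in cov bases and 13 and 2.5 in wild type bases. The green tissue marker RCA was not called between the genotypes (adjusted p = 0.727 by limma). Wild type base array 1 stood apart by its median signal, 41.4 against 46.4 to 47.9 on the other base arrays.

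At the base, 881 of 15923 tested probe sets (5.53%) differed between the genotypes at an adjusted p under 0.05 by limma. Of these 545 (3.42%) were higher and 336 (2.11%) lower in cov. The median fold was 2.16 among the higher and 1.98 among the lower calls. Differences of at least 4-fold were found for 55 higher and 17 lower probe sets. Under median centring, which moved the median log2 difference of all probe sets from 0.02 to -0.06, the calls were 396 higher and 388 lower. Under quantile normalization they were 495 higher and 314 lower, so the size of the excess of higher calls depends on the scaling. Without wild type base array 1 the calls were 440, of which 321 were higher and 119 lower. In bulk stem tissue, fewer cells of a type and less RNA per cell cannot be told apart. The plot of differences against mean signal shows the spread of calls over the range of signal.

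**Figure D1:**
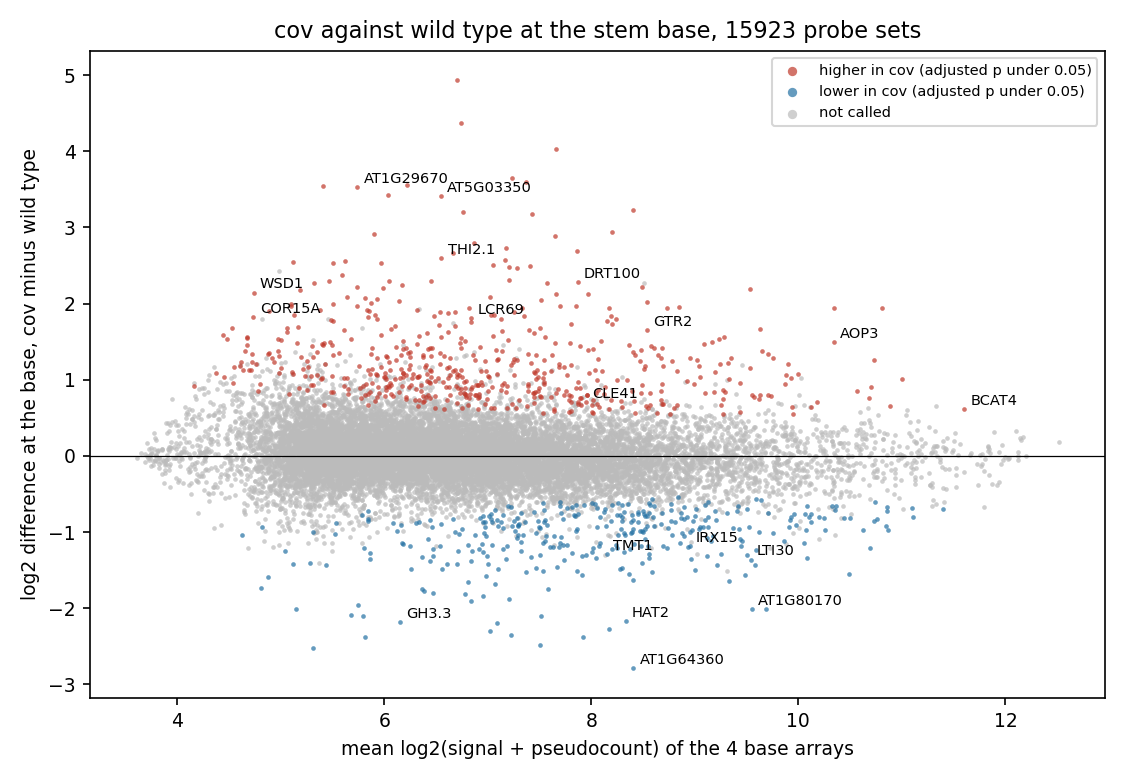
Log2 difference at the stem base, cov minus wild type, of each of 15923 probe sets (vertical axis) against its mean log2 signal on the 4 base arrays (horizontal axis). Red points are the 545 probe sets called higher and blue points the 336 called lower in cov, and grey points were not called.

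Folds and log2 differences are on the scale of log2(signal + 11.85), with standard errors after ±, and understate the ratio of low signals. The gene lists and their members were chosen with earlier results of these data known, so their counts are descriptive and not an independent test. Counts of gene lists use 1 probe set per gene. On that basis 394 of 8698 genes (4.53%) were called, 237 higher (2.72%) and 157 lower (1.81%), and the median log2 difference of all genes was 0.01. In each of the 881 called probe sets the cov base pair and the wild type base pair did not overlap. Called or not, the cov pair lay wholly above the wild type pair for 25.3% and wholly below it for 21.1% of all tested probe sets. The bar plot of lists gives the share of members called in each direction.

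**Figure D2:**
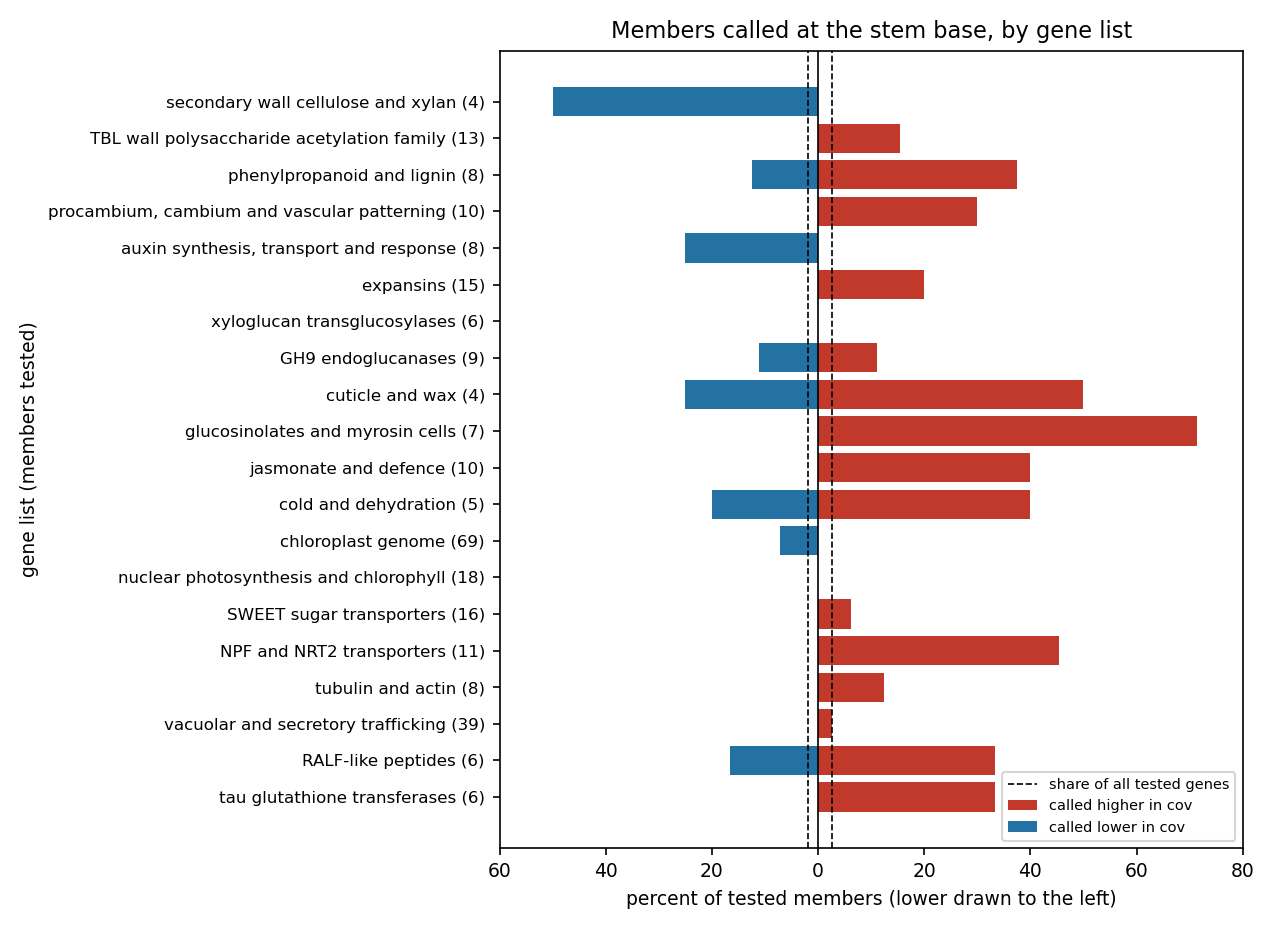
Percent of the tested members of each gene list that were called higher in cov (red, to the right) or lower in cov (blue, to the left) at the stem base, with the number of tested members in brackets. Dashed lines mark the shares of all 8698 tested genes, 2.72% higher and 1.81% lower. The lists were chosen with earlier results of these data known.

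Xylan genes of the secondary wall were lower in cov for 2 of 4 tested members, and none rose, with a median log2 difference of -0.68. All 4 are genes of xylan synthesis, and no cellulose synthase gene was among those tested. Over all alternatives run, between 0 and 3 members fell. IRX15, whose product is needed to build normal xylan, was 2.27-fold lower in cov (95% limits 1.64 to 3.14, adjusted p = 0.00884). Its relative IRX15-L had a signal of 459 and 585 in cov bases, against 986 and 754 in wild type bases, and was 1.65-fold lower in cov (95% limits 1.26 to 2.16, adjusted p = 0.0391). GUT2, a glycosyltransferase of xylan backbone synthesis, had 516 and 789.9 in cov bases, against 1087 and 915 in wild type bases, and was not called (log2 difference -0.63 ± 0.20, adjusted p = 0.106). Its relative GUT1 was not called either, at -0.09 ± 0.18 (adjusted p = 0.862). The difference of IRX15 at the base was other than at the tip, by -1.46 ± 0.30 (adjusted p = 0.0364), with an adjusted p of up to 0.138 when single arrays were omitted (past 0.05 for all but cov base replicate 2). The call ended for IRX15 with cov base replicate 1 (adjusted p = 0.0561) or wild type base replicate 1 (adjusted p = 0.0885) omitted, and for IRX15-L with cov base replicate 1, wild type base replicate 1, either cov tip replicate or either wild type tip replicate omitted (adjusted p 0.0511 to 0.218).

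Among 8 tested genes of phenylpropanoid and lignin metabolism 3 rose and 1 fell (0 to 3 and 0 to 1 over the alternatives run). HCT, an acyltransferase of monolignol synthesis, had a signal of 1282 and 1473 in cov bases, against 1902 and 2295 in wild type bases, and was 1.52-fold lower in cov (95% limits 1.2 to 1.91, adjusted p = 0.047). The genes that rose were AT5G64120, PRX52 and BGLU46. Among the members not called were PRXR1 (-0.01 ± 0.17, adjusted p = 0.989), AT2G41480 (-0.49 ± 0.42, adjusted p = 0.603) and UGT72E2 (-0.04 ± 0.20, adjusted p = 0.955). The peroxidase gene AT5G64120 (PRX71) had a signal of 96.5 and 68.9 in cov bases, against 27.2 and 32.5 in wild type bases, and was 2.25-fold higher in cov (95% limits 1.6 to 3.15, adjusted p = 0.0116). PRX52, a peroxidase of lignifying tissue, and BGLU46, a beta-glucosidase of monolignol glucosides, differed by 1.09 ± 0.26 (adjusted p = 0.0325) and 1.08 ± 0.27 (adjusted p = 0.0465). BGLU45, of the same glucosidase group, did not pass at the base (-0.29 ± 0.18, adjusted p = 0.44). Calls did not hold for AT5G64120 with cov base replicate 1 (adjusted p = 0.0819) or wild type base replicate 1 (adjusted p = 0.0774) omitted, PRX52 with either cov base replicate, either wild type base replicate or either cov tip replicate omitted (adjusted p 0.0527 to 0.137), BGLU46 with cov base replicate 2, either wild type base replicate, either cov tip replicate or either wild type tip replicate omitted (adjusted p 0.0545 to 0.244) and HCT with any 1 of the 8 arrays omitted (adjusted p 0.0564 to 0.199).

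**Figure D3:**
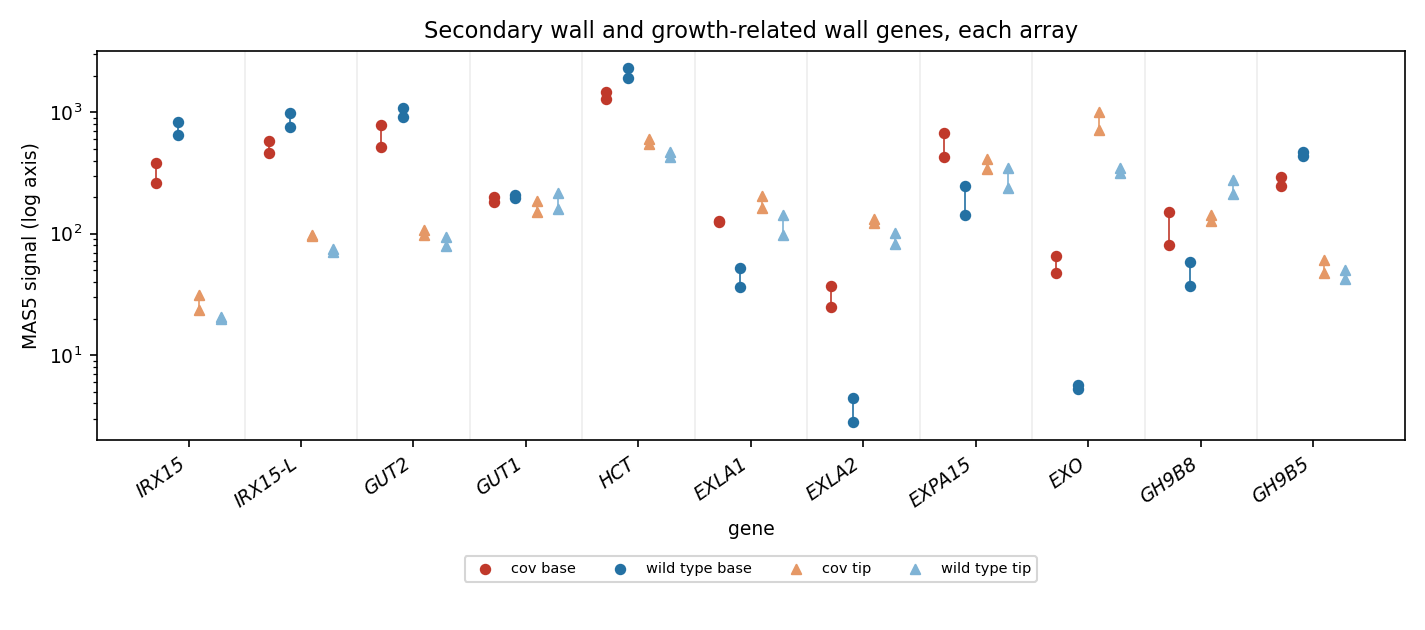
MAS5 signal on each array (log axis) of secondary wall genes and of growth-related wall genes, with cov bases left of wild type bases, then cov tips and wild type tips. At the base both cov points of IRX15, IRX15-L, HCT and GH9B5 lie below both wild type points, and those of EXLA1, EXLA2, EXPA15, EXO and GH9B8 lie above.

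Several growth-related wall genes were higher in cov bases. Of 15 tested expansin and expansin-like genes 3 rose and none fell, with a median log2 difference of 0.46 (2 to 4 raised over the alternatives run). Expansins are proteins that loosen walls, and EXLA2 and EXLA1 are expansin-like genes. EXLA2 had a signal of 24.7 and 36.8 in cov bases, against 4.4 and 2.8 in wild type bases, and EXLA1 had 127 and 125 in cov bases, against 51.7 and 36.4 in wild type bases. They were 2.73-fold higher in cov (95% limits 1.96 to 3.81, adjusted p = 0.0035) and 2.49-fold higher in cov (95% limits 1.79 to 3.46, adjusted p = 0.00561). EXPA15 was 2.75-fold higher in cov (95% limits 1.79 to 4.22, adjusted p = 0.0123). EXPA8 was high on 1 cov array alone, at 10.8 and 101 in cov bases, against 13.7 and 6.2 in wild type bases, and was not called. EXO, a gene of the brassinosteroid growth response that was singled out after its values were seen, had a signal of 65.6 and 47.8 in cov bases, against 5.3 and 5.7 in wild type bases, and was 3.92-fold higher in cov (95% limits 2.87 to 5.34, adjusted p = 0.000406). It was also higher in cov at the tip (1.32 ± 0.20, adjusted p = 0.00658), and the base and tip differences were not told apart (adjusted p = 0.319). That tip call did not hold with cov tip replicate 1 or wild type tip replicate 1 omitted. Calls were lost for EXPA15 with cov base replicate 2 (adjusted p = 0.0755) or wild type base replicate 1 (adjusted p = 0.111) omitted.

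Of 9 GH9 endoglucanases 1 rose and 1 fell, of 13 members of the TBL family of wall acetylation 2 rose, and of 6 xyloglucan transglucosylases none was called. GH9B8 was 2.11-fold higher in cov (95% limits 1.39 to 3.19, adjusted p = 0.0445) and GH9B5 1.65-fold lower in cov (95% limits 1.27 to 2.15, adjusted p = 0.0346). TBL45 had a signal of 95.8 and 123 in cov bases, against 47.5 and 52.3 in wild type bases, and TBL38 had 220.1 and 219 in cov bases, against 136 and 86.8 in wild type bases. Their log2 differences were 0.96 ± 0.18 (adjusted p = 0.0104) and 0.94 ± 0.22 (adjusted p = 0.0356). Of 8 tubulin and actin genes TUB7, a beta-tubulin, was 2.17-fold higher in cov (95% limits 1.58 to 2.96, adjusted p = 0.00972). Of 6 RALF-like peptides, RALFL34 (1.17 ± 0.19) and RALFL33 (0.92 ± 0.19) rose and RALFL32 (-0.73 ± 0.18) fell. THE1, a receptor-like kinase of wall sensing named after its values were seen, was 2.04-fold higher in cov (95% limits 1.47 to 2.84, adjusted p = 0.0192). Single omissions ended the call of GH9B8 with cov base replicate 2, either wild type base replicate, either cov tip replicate or either wild type tip replicate omitted (adjusted p 0.0591 to 0.252), GH9B5 with either cov base replicate, either wild type base replicate or either cov tip replicate omitted (adjusted p 0.0528 to 0.167), TBL45 with cov base replicate 2 (adjusted p = 0.0668) or wild type base replicate 1 (adjusted p = 0.072) omitted, TBL38 with either cov base replicate, wild type base replicate 2 or either cov tip replicate omitted (adjusted p 0.0626 to 0.184), TUB7 with cov base replicate 2 or either wild type base replicate omitted (adjusted p 0.0561 to 0.0707), RALFL33 with cov base replicate 1 (adjusted p = 0.108) or wild type base replicate 2 (adjusted p = 0.103) omitted, RALFL32 with either cov base replicate, wild type base replicate 1, either cov tip replicate or either wild type tip replicate omitted (adjusted p 0.0538 to 0.225) and THE1 with cov base replicate 2 or either wild type base replicate omitted (adjusted p 0.0686 to 0.104).

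Among genes of glucosinolate metabolism, transport and myrosin cells 5 of 7 tested members rose in cov bases. Glucosinolates are sulfur-rich defence compounds made from amino acids. None fell, and all 7 had a positive difference, with a median of 0.86. Over the alternatives run, between 2 and 5 members rose. GTR2, a glucosinolate transporter, had a signal of 589.5 and 712 in cov bases, against 181 and 218 in wild type bases, and was 3.14-fold higher in cov (95% limits 2.45 to 4.02, adjusted p = 0.000314). AOP3, a dioxygenase that modifies the side chain, had 2234 and 2116 in cov bases, against 848 and 684 in wild type bases, and was 2.83-fold higher in cov (95% limits 2.24 to 3.57, adjusted p = 0.000395). UGT74B1, which adds the glucose, was 2.38-fold higher in cov (95% limits 1.65 to 3.41, adjusted p = 0.0116), and the transporter GTR1 was 1.82-fold higher in cov (95% limits 1.39 to 2.39, adjusted p = 0.0174).

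BCAT4, which acts early in methionine chain elongation, had the smallest base difference of the 5 that rose, with a signal of 3645 and 4023 in cov bases, against 2652 and 2346 in wild type bases, and was 1.53-fold higher in cov (95% limits 1.2 to 1.96, adjusted p = 0.0497). At the tip its values were 585 and 536 in cov tips, against 37.7 and 51 in wild type tips, so that base and tip differed by -2.74 ± 0.22 (adjusted p = 0.000834). FMA (FAMA), a factor of guard cell and myrosin cell fate, was not called (0.23 ± 0.21, adjusted p = 0.626). AOP1, a relative of AOP3, was not called either, at 0.22 ± 0.21 (adjusted p = 0.662). No call remained for UGT74B1 with cov base replicate 1 (adjusted p = 0.0524) or wild type base replicate 2 (adjusted p = 0.0921) omitted, GTR1 with cov base replicate 2 (adjusted p = 0.102) or wild type base replicate 2 (adjusted p = 0.104) omitted and BCAT4 with either cov base replicate, either wild type base replicate or either cov tip replicate omitted (adjusted p 0.0931 to 0.189).

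Of 6 tau glutathione transferases, which join glutathione to small molecules, 2 rose and none fell, with a median log2 difference of -0.16. Both cov arrays lay below both wild type arrays for 3 of the 6 (21.5% of all genes) and above for 2 (23.8% of all genes). The 2 that rose were GSTU20, which was 2.39-fold higher in cov (95% limits 1.86 to 3.07, adjusted p = 0.00141), and GSTU27, which was 1.53-fold higher in cov (95% limits 1.2 to 1.94, adjusted p = 0.0471). APS3, HL, MT1C and STR18 belong to no list counted here and were named after their values were seen. APS3, an ATP sulfurylase of sulfate assimilation, had 225 and 233 in cov bases, against 87.6 and 90.5 in wild type bases, and was 2.39-fold higher in cov (95% limits 1.9 to 3, adjusted p = 0.001). HL, a HAL2-like gene, was 1.77-fold higher in cov (95% limits 1.3 to 2.41, adjusted p = 0.0381), and MT1C, a metallothionein, 1.73-fold higher in cov (95% limits 1.3 to 2.29, adjusted p = 0.0317). The sulfurtransferase gene STR18 was 2.45-fold lower in cov (95% limits 1.87 to 3.22, adjusted p = 0.00207). The call ended for GSTU27 with any 1 of the 8 arrays omitted (adjusted p 0.0516 to 0.183), HL with cov base replicate 1 or either wild type base replicate omitted (adjusted p 0.135 to 0.203) and MT1C with cov base replicate 1, wild type base replicate 2 or either cov tip replicate omitted (adjusted p 0.0597 to 0.177).

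**Figure D4:**
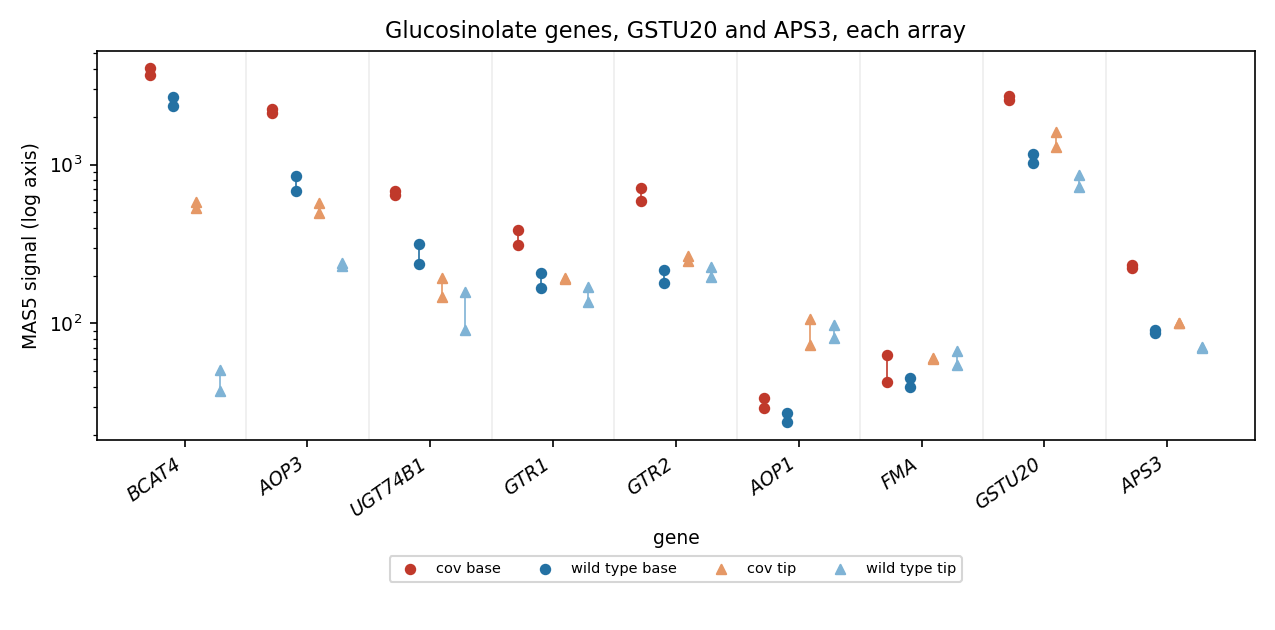
MAS5 signal on each array (log axis) of the 7 tested glucosinolate and myrosin cell genes, GSTU20 and APS3, with cov bases left of wild type bases, then cov tips and wild type tips. Both cov base points of GTR2, AOP3, UGT74B1, GTR1, BCAT4, GSTU20 and APS3 lie above both wild type base points.

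Some vascular regulators were higher and some auxin response genes lower in cov. Of 10 tested genes of procambium, cambium and vascular patterning 3 rose and none fell, with a median log2 difference of 0.34 (1 to 3 raised over the alternatives run). LHW, a bHLH factor of vascular cell division, had a signal of 148 and 156 in cov bases, against 89.8 and 60.9 in wild type bases, and was 1.9-fold higher in cov (95% limits 1.43 to 2.53, adjusted p = 0.0152). CLE41, a peptide that keeps procambial cells dividing, had 278 and 332 in cov bases, against 175 and 190.2 in wild type bases, and was 1.63-fold higher in cov (95% limits 1.26 to 2.09, adjusted p = 0.0329). Its relative CLE44 was not called (0.10 ± 0.21, adjusted p = 0.856). PTL, a trihelix factor better known from petal development, was 2.55-fold higher in cov (95% limits 1.82 to 3.55, adjusted p = 0.00511). MOL1, a receptor-like kinase that restrains cambial growth, had 89.3 and 119 in cov bases, against 62.2 and 57.6 in wild type bases, and was not called (0.68 ± 0.18, adjusted p = 0.0598). Calls did not hold for LHW with either cov base replicate or wild type base replicate 2 omitted (adjusted p 0.0507 to 0.0814) and CLE41 with cov base replicate 2, either wild type base replicate or either cov tip replicate omitted (adjusted p 0.0558 to 0.164).

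Of 8 tested auxin genes 2 fell (1 or 2 over the alternatives run) and none rose. Their median log2 difference was -0.04, and 4 of the 8 had a positive difference. HAT2, an auxin-induced homeobox gene, had a signal of 132 and 148 in cov bases, against 612 and 735 in wild type bases. It was 4.49-fold lower in cov (95% limits 3.51 to 5.76, adjusted p = 0.000105), and the difference was other than at the tip by -1.92 ± 0.23 (adjusted p = 0.0023). GH3.3, an enzyme that conjugates auxin to amino acids, had 6.6 and 48 in cov bases, against 171 and 113 in wild type bases, with the cov arrays far apart, and was 4.54-fold lower in cov (95% limits 2.32 to 8.89, adjusted p = 0.0154). Its relative WES1 was not called (0.12 ± 0.18, adjusted p = 0.796). Calls were lost for GH3.3 with wild type base replicate 1 (adjusted p = 0.136) or wild type base replicate 2 (adjusted p = 0.052) omitted.

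Of 4 tested cuticle and wax genes 2 rose and 1 fell. WSD1, a wax ester synthase, had a signal of 46.2 and 42.3 in cov bases, against 0.4 and 1.3 in wild type bases, and was 4.42-fold higher in cov (95% limits 3.33 to 5.86, adjusted p = 0.000158). At the tip it was high in all arrays, with 291 and 238 in cov tips, against 387 and 313 in wild type tips. SHN3, an activator of cuticle genes, was 3.08-fold higher in cov (95% limits 2.16 to 4.38, adjusted p = 0.0025). AT5G61590 (DEWAX), a repressor of wax synthesis, had 377 and 225 in cov bases, against 1002 and 719 in wild type bases, and was 2.84-fold lower in cov (95% limits 1.97 to 4.09, adjusted p = 0.00456). The cysteine-rich peptide genes LCR69 and LCR68, named after their values were seen, were 3.51-fold higher in cov (95% limits 2.77 to 4.44, adjusted p = 0.000149) and 2.78-fold higher in cov (95% limits 2.22 to 3.48, adjusted p = 0.000335). Single omissions ended the call of AT5G61590 with wild type base replicate 1 (adjusted p = 0.0553) omitted.

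Of 5 tested cold and dehydration genes 2 rose and 1 fell. COR15A and COR15B, neighbouring genes for cold-induced chloroplast proteins, had 36.2 and 40.5 in cov bases, against 1.9 and 2.7 in wild type bases, and 96.5 and 121 in cov bases, against 48.5 and 49.3 in wild type bases. They were 3.55-fold higher in cov (95% limits 2.66 to 4.73, adjusted p = 0.000406) and 1.97-fold higher in cov (95% limits 1.53 to 2.55, adjusted p = 0.0064). LTI30, a dehydrin, had 334 and 609.5 in cov bases, against 1222 and 1138 in wild type bases, and was 2.57-fold lower in cov (95% limits 1.79 to 3.69, adjusted p = 0.00729). XERICO, a RING protein that promotes abscisic acid accumulation and was named after its values were seen, was 1.82-fold lower in cov (95% limits 1.39 to 2.38, adjusted p = 0.0172). No call remained for LTI30 with wild type base replicate 1 (adjusted p = 0.0698) omitted and XERICO with cov base replicate 1 or either wild type base replicate omitted (adjusted p 0.085 to 0.0928).

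Defence genes were raised in 4 of 10 cases (2 to 4 over the alternatives run) and lowered in none. THI2.1, a jasmonate-responsive thionin, had a signal of 284 and 168 in cov bases, against 15.1 and 42 in wild type bases, and was 6.06-fold higher in cov (95% limits 3.28 to 11.2, adjusted p = 0.00409). The chitinase gene CHI had 409.8 and 316 in cov bases, against 96.1 and 151 in wild type bases, and was 2.8-fold higher in cov (95% limits 1.89 to 4.15, adjusted p = 0.00721). The lectin gene JAL23 was 3.31-fold higher in cov (95% limits 2.03 to 5.39, adjusted p = 0.0101), and OPCL1, an enzyme of jasmonate synthesis, 1.64-fold higher in cov (95% limits 1.26 to 2.15, adjusted p = 0.0397). The call ended for CHI with wild type base replicate 1 (adjusted p = 0.0721) omitted, JAL23 with cov base replicate 1 (adjusted p = 0.0601) or wild type base replicate 1 (adjusted p = 0.0719) omitted and OPCL1 with either cov base replicate, either wild type base replicate or either cov tip replicate omitted (adjusted p 0.072 to 0.155).

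Genes of the chloroplast genome fell in 5 of 69 cases and rose in none, with a median log2 difference of -0.16 (1 to 6 lowered over the alternatives run). Both cov arrays lay below both wild type arrays for 23 of the 69 (21.5% of all genes) and above for 8 (23.8% of all genes). The gene petN, for a small subunit of the cytochrome b6f complex, had 67.9 and 68.6 in cov bases, against 189.6 and 171 in wild type bases, and was 2.4-fold lower in cov (95% limits 1.87 to 3.07, adjusted p = 0.00135). The genes psbE of photosystem II and petA, for cytochrome f, were 1.65-fold lower in cov (95% limits 1.34 to 2.04, adjusted p = 0.0121) and 1.77-fold lower in cov (95% limits 1.33 to 2.37, adjusted p = 0.0288). Smaller differences were those of cemA (-0.66 ± 0.17) and psbD (-0.66 ± 0.17). None of 18 nuclear photosynthesis and chlorophyll genes was called, and their median was 0.08. The nuclear genes Cpn60beta2, a chloroplast chaperonin, and TAAC, a thylakoid carrier, were named after their values were seen and were 1.97-fold higher in cov (95% limits 1.57 to 2.49, adjusted p = 0.00396) and 1.57-fold higher in cov (95% limits 1.24 to 2.01, adjusted p = 0.0373). Calls did not hold for psbE with cov base replicate 1 or either wild type base replicate omitted (adjusted p 0.0553 to 0.0633), petA with cov base replicate 1, either wild type base replicate or either cov tip replicate omitted (adjusted p 0.058 to 0.147), cemA with either cov base replicate, either wild type base replicate or either cov tip replicate omitted (adjusted p 0.0633 to 0.196), psbD with cov base replicate 1, either wild type base replicate, either cov tip replicate or either wild type tip replicate omitted (adjusted p 0.0628 to 0.244) and TAAC with either cov base replicate, either wild type base replicate or either cov tip replicate omitted (adjusted p 0.0618 to 0.172).

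Transporters of nitrate and related compounds (NPF and NRT2) rose in 5 of 11 cases (2 to 5 over the alternatives run) and fell in none, and the glucosinolate transporters GTR1 and GTR2 are 2 of these 5. AT2G26690 (NPF6.2) had 613 and 425 in cov bases, against 101 and 116 in wild type bases, and was 4.34-fold higher in cov (95% limits 3.15 to 5.99, adjusted p = 0.000328). AT1G68570 (NPF3.1) and AT1G33440 (NPF4.4) were 2.16-fold higher in cov (95% limits 1.51 to 3.07, adjusted p = 0.0184) and 1.96-fold higher in cov (95% limits 1.41 to 2.73, adjusted p = 0.025). Of 16 SWEET sugar transporters SWEET11, a sucrose exporter, was 2.77-fold higher in cov (95% limits 1.74 to 4.42, adjusted p = 0.0178). TMT1, which moves sugars into the vacuole and was named after its values were seen, had 161 and 179.5 in cov bases, against 388 and 486 in wild type bases, and was 2.45-fold lower in cov (95% limits 1.9 to 3.17, adjusted p = 0.00139). Calls were lost for AT1G68570 with either cov base replicate or wild type base replicate 1 omitted (adjusted p 0.0645 to 0.088), AT1G33440 with either cov base replicate or wild type base replicate 1 omitted (adjusted p 0.0658 to 0.153) and SWEET11 with either cov base replicate or wild type base replicate 2 omitted (adjusted p 0.0549 to 0.0775).

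Among the 15 genes with the highest differences, AT1G29670 had a signal of 101 and 279 in cov bases, against 4.9 and 2.9 in wild type bases, and was 11.5-fold higher in cov (95% limits 6.95 to 19.2, adjusted p = 0.000266). AT5G03350 had 383 and 224 in cov bases, against 20.7 and 13.3 in wild type bases, and was 10.7-fold higher in cov (95% limits 7.3 to 15.6, adjusted p = 0.000105). Among the others AT2G10940 differed by 2.80 ± 0.29, AT5G63180 by 2.67 ± 0.35, AT4G21650 by 2.55 ± 0.28, AT3G16370 by 2.31 ± 0.27 and DRT100 by 2.28 ± 0.27. Lower in that order came AT5G59330 (2.09 ± 0.33), AT1G22690 (2.09 ± 0.20) and AT5G48490 (2.07 ± 0.18). The neighbours AT4G27652 and AT4G27654 were high mainly on cov base array 1, with 719.8 and 155 in cov bases, against 48.1 and 46.4 in wild type bases, and 258 and 63.9 in cov bases, against 22.7 and 23.5 in wild type bases. Single omissions ended the call of AT4G27652 with wild type base replicate 1 (adjusted p = 0.0885) or wild type base replicate 2 (adjusted p = 0.0784) omitted and AT4G27654 with wild type base replicate 1 (adjusted p = 0.128) or wild type base replicate 2 (adjusted p = 0.106) omitted.

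Among the 15 with the lowest differences, AT1G64360 had 157 and 86.7 in cov bases, against 1096 and 708 in wild type bases, and was 6.92-fold lower in cov (95% limits 4.53 to 10.6, adjusted p = 0.000328). AT1G80170 had 368 and 355 in cov bases, against 1468 and 1520.0 in wild type bases, and was 4.03-fold lower in cov (95% limits 2.83 to 5.73, adjusted p = 0.000842). AT2G35450 and AT3G25930 differed by -2.38 ± 0.28 and -2.30 ± 0.29, AT2G18480 by -2.11 ± 0.26 and AT3G61160 by -2.10 ± 0.20. The rest were AT1G30760 (-2.01 ± 0.39), AT2G20670 (-1.90 ± 0.40), AT1G30820 (-1.87 ± 0.17), AT1G78450 (-1.80 ± 0.22), AT1G49210 (-1.68 ± 0.28), AT3G49790 (-1.65 ± 0.27) and AT5G40960 (-1.63 ± 0.16). AT1G30760 and AT2G18480 passed the signal filter only through the wild type bases. These had 47.1 and 74.2 for AT1G30760, with at most 17.6 on any other array. For AT2G18480 they had 112.9 and 95, with at most 23.8 elsewhere. With a pseudocount of 1 AT1G30760 was not called (adjusted p = 0.0596 by limma). No call remained for AT1G30760 with cov base replicate 2 (adjusted p = 0.069) or wild type base replicate 2 (adjusted p = 0.0965) omitted, AT2G20670 with cov base replicate 2 or either wild type base replicate omitted (adjusted p 0.0544 to 0.154), AT1G49210 with wild type base replicate 1 (adjusted p = 0.061) omitted and AT3G49790 with wild type base replicate 2 (adjusted p = 0.0547) omitted.

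The tip comparison sets other arrays against each other than the base comparison. Both use 1 estimate of the spread from all 8 arrays, so calls in the 2 parts are not independent. At the tip 290 probe sets (1.82%) were called, 225 higher (1.41%) and 65 lower (0.408%) in cov, and 84 were called in both, which is 9.53% of the base calls and 29.0% of the tip calls. Of the 84, 64 were higher in cov in both parts, 9 lower in both and 11 opposite. The difference itself was other at the base than at the tip for 342 probe sets (2.15%), more positive for 176 (1.11%) and more negative for 166 (1.04%). They held 237 of the base calls (26.9%), of which 153 were higher and 84 lower at the base. That count of 342 is less stable, and lay between 111 and 465 when single arrays were left out. The plot of base against tip differences shows these probe sets.

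**Figure D5:**
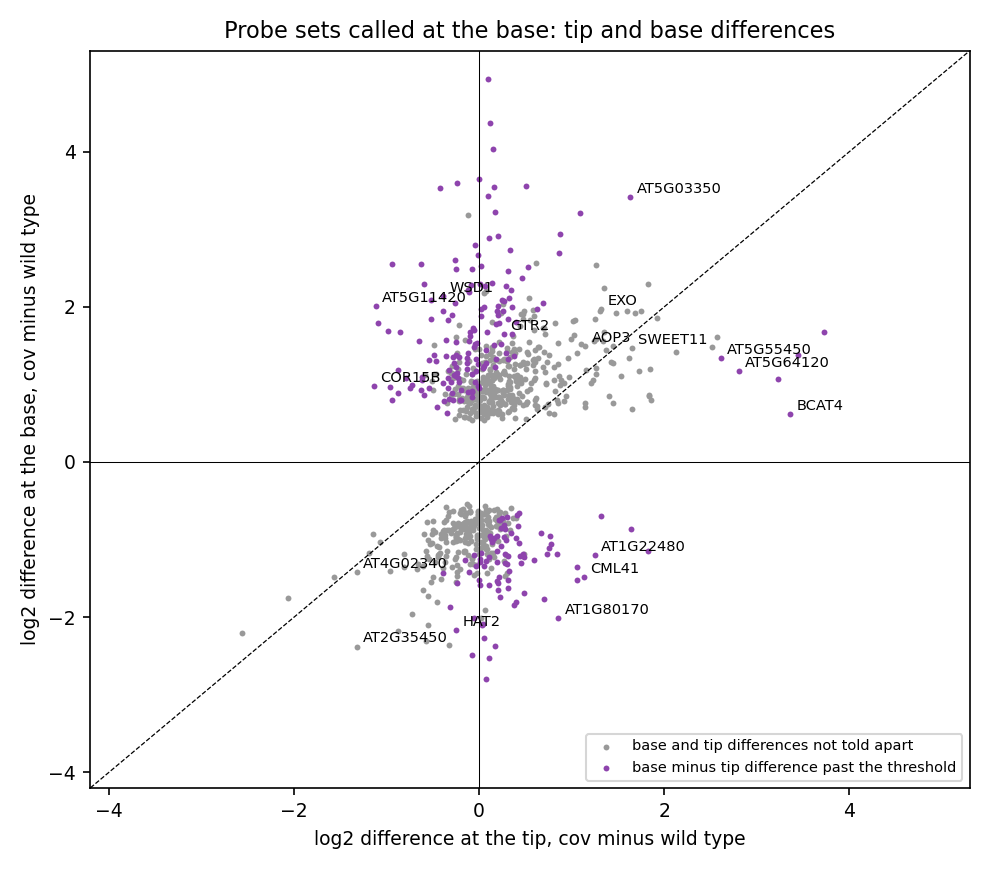
Log2 difference, cov minus wild type, at the base (vertical axis) against that at the tip (horizontal axis) for the 881 probe sets called at the base. Purple points are the 237 whose base and tip differences were told apart, and the dashed line marks equal differences.

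Genes higher in cov in both parts included AT5G55450, with 1261 and 1376 in cov bases, against 537 and 493 in wild type bases, and 876 and 980.4 in cov tips, against 162 and 123 in wild type tips. Its log2 differences were 1.34 ± 0.16 (adjusted p = 0.001) at the base and 2.61 ± 0.16 (adjusted p = 1.64e-05) at the tip. AT1G65500 differed by 1.61 ± 0.19 (adjusted p = 0.000973) at the base and 2.57 ± 0.19 (adjusted p = 8.47e-05) at the tip. AT4G02340 and AT4G33380 were lower in both parts, with log2 differences of -1.42 ± 0.18 (adjusted p = 0.00132) and -1.03 ± 0.18 (adjusted p = 0.00748) at the base and -1.32 ± 0.18 (adjusted p = 0.00336) and -1.07 ± 0.18 (adjusted p = 0.0111) at the tip. These genes were named after their values were seen. The base call was lost for AT4G33380 with wild type base replicate 2 (adjusted p = 0.0515) omitted, and its tip call with either cov tip replicate or wild type tip replicate 1 omitted (adjusted p up to 0.13).

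Opposite calls were made for COR15B, which was higher in cov at the base and lower at the tip (-1.13 ± 0.17, adjusted p = 0.00543), and for TBL45 (-0.96 ± 0.18, adjusted p = 0.0219 at the tip). AT5G11420 and AT5G07030 followed the same order, at 2.01 ± 0.24 (adjusted p = 0.000933) and 1.67 ± 0.19 (adjusted p = 0.000673) at the base and -1.12 ± 0.24 (adjusted p = 0.0422) and -0.85 ± 0.19 (adjusted p = 0.0474) at the tip. AT1G22480 went the other way, with 997 and 1162 in cov bases, against 2669 and 2332 in wild type bases, and 58.1 and 89.5 in cov tips, against 26.6 and 20.7 in wild type tips. Its log2 differences were -1.20 ± 0.20 (adjusted p = 0.00521) at the base and 1.25 ± 0.20 (adjusted p = 0.00716) at the tip. AT2G21185 was likewise lower at the base (-0.96 ± 0.15, adjusted p = 0.00456) and higher at the tip (0.76 ± 0.15, adjusted p = 0.0301). AT1G22480, AT2G21185, CML41 and AGL42 were named after their values were seen. CML41, a calmodulin-like gene, was 2.8-fold lower in cov (95% limits 1.88 to 4.17, adjusted p = 0.00765), and was not called at the tip (1.14 ± 0.26, adjusted p = 0.0618). The MADS-box gene AGL42 was 2.65-fold higher in cov (95% limits 1.94 to 3.62, adjusted p = 0.00278), and differed between base and tip by 1.53 ± 0.29 (adjusted p = 0.0246). That last test reached an adjusted p of 0.105 when single arrays were omitted, and failed for either cov tip array, cov base array 2, wild type base array 1 and wild type tip array 2. The base call was lost for AT1G22480 with wild type base replicate 1 (adjusted p = 0.0572) omitted and CML41 with wild type base replicate 2 (adjusted p = 0.0684) omitted, and for TBL45 with cov base replicate 2 (adjusted p = 0.0668) or wild type base replicate 1 (adjusted p = 0.072) omitted. At the tip the calls of AT5G11420, AT5G07030 and AT2G21185 were lost with any 1 of the 4 tip arrays omitted (up to adjusted p = 0.336, 0.432 and 0.358). Those of COR15B and AT1G22480 were lost with replicate 2 of either genotype omitted (up to 0.0798 and 0.0866), and that of TBL45 with either cov replicate or wild type replicate 1 omitted (up to 0.191). The base minus tip difference of COR15B, TBL45, AT5G11420, AT5G07030, AT1G22480, AT2G21185 and CML41 stayed past the threshold under each omission.

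Several lists had few calls. Of all tested genes 2.72% were called higher and 1.81% lower, so few calls are usual for lists of this size. Of 39 genes of vacuolar and secretory trafficking 1 rose, PRA1.F1, a prenylated Rab acceptor, with 50 and 102 in cov bases, against 24 and 5.1 in wild type bases (3.4-fold higher in cov, 95% limits 2 to 5.79, adjusted p = 0.0135). The median of that list was 0.02. No member was called among 14 cell division genes, 10 autophagy genes, 7 CSL glycan synthases or 19 IQD and TRM genes. Of the last, 17 had a positive difference, and of the CSL genes all 7, where the median of all genes was 0.01. The list medians were 0.27 for the IQD and TRM genes and 0.23 for the CSL genes. Signs of the smallest differences depend on the scaling, since median centring moved the median of all probe sets from 0.02 to -0.06. The smallest CSL difference was 0.02, and the others lay between 0.16 and 0.47. At an unadjusted limma p under 0.05 there were 3049 probe sets in all. The call ended for PRA1.F1 with cov base replicate 2 (adjusted p = 0.0802) or wild type base replicate 2 (adjusted p = 0.0833) omitted.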

How the data were processed

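RNA of stem bases and tips was measured on 8 arrays. The authors deposited intensity as linear MAS5 signal, which the submitters' processing notes name without a version. The mean of the authors' values, trimmed by 2% at each end, came to 100 on every array, so no further scaling was applied. Of 22810 probe sets 64 were controls, and of the rest 13513 had 1 gene, 503 several and 8730 none. Symbols came from the RefSeq annotation of TAIR10.1, used for names and gene order alone.

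From the deposited intensity, log2(signal + 11.85) was computed, with a pseudocount of 0.25 of the table median of 47.4. Probe sets under a mean signal of 21.4, the 30th percentile, were left out (6823). The 4 group means were fitted on all 8 arrays with limma 3.58.1 in R 4.3.3, with eBayes and a variance trend. This left 4 residual degrees of freedom, and the number of arrays limits the precision. P-values are two-sided, with Benjamini-Hochberg adjustment over all 15923 probe sets. Lists use the probe set of highest mean signal per gene and have no test of their own.

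Genes named are those among the 15 highest and 15 lowest differences, the 6 list members of smallest p for each list described, and the 5 with the smallest p of the base minus tip difference, all but the list members past the threshold at the base. Another 20 genes were added after their values were seen, as the text says where they appear, so the share of named genes that keep their call is not that of an unselected set. Also outside the rule are PRXR1, UGT72E2, AOP1 and CLE44, given as list members not called, and the marker AMS. The same holds for genes given only as neighbours or for a second probe set. The members and lists were chosen with earlier results of these data known. After their values were seen, FDH and LCR, which here stand for loci other than the surface genes so called, and the cytosolic enzyme TPI were taken out.

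On simulated data for the base contrast the fit recovered 6% of genes changed 1.5-fold, 40% at 2-fold, 96% at 4-fold and 100% at 8-fold, and 4 of 125 calls were false. In it 50 of 15923 probe sets were changed at each fold, with noise independent between probe sets and arrays. It held no shift of a whole array, so it does not give the share of false calls among the 881. Alternatives covered the arrays fitted, a replicate block, scaling, pseudocount, filter, variance trend and omission of each array.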

Additional observations from a re-analysis of the deposited data

Results flagged for a closer look

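For 43 of the 96 named genes called at the base, the difference between cov and wild type was other at the base than at the tip by the limma test of that difference. Over all 881 base calls this held for 237 (26.9%). Named genes were partly chosen by this test or by the size of their base difference, so their share is not that of an unselected set. Values in brackets are the base difference minus the tip difference on the log2 scale, and the adjusted p lay between 0.000834 (BCAT4) and 0.0475 (RALFL34). The difference was more positive at the base for AT1G29670 (3.96), AT4G21650 (3.49), AT5G11420 (3.13), THI2.1 (2.86), AT2G10940 (2.85), AT5G63180 (2.68), AT5G59330 (2.61), WSD1 (2.53) and AT5G07030 (2.52). Next in size were DRT100 (2.37), AT3G16370 (2.18), COR15A (2.16), COR15B (2.11), TBL45 (1.92), GH9B8 (1.87), AT1G22690 (1.84), AT5G48490 (1.81) and AT2G26690 (1.80). The smallest of this direction were AT5G03350 (1.78), SHN3 (1.72), AGL42 (1.53), LCR69 (1.41), GTR2 (1.38), RALFL34 (1.20) and Cpn60beta2 (0.99). In the other direction came psbE (-0.97), petN (-1.11), AT5G55450 (-1.28), STR18 (-1.31), IRX15 (-1.46), AT1G30820 (-1.56), AT5G64120 (-1.64), AT2G21185 (-1.72) and AT3G49790 (-1.85). The most negative were HAT2 (-1.92), AT5G40960 (-1.94), AT3G61160 (-2.13), AT1G49210 (-2.17), AT1G22480 (-2.45), CML41 (-2.62), BCAT4 (-2.74), AT1G64360 (-2.86) and AT1G80170 (-2.87). Of these, BCAT4, AT5G55450 and AT5G64120 were higher in cov in both parts, by more at the tip. Groups of 2 arrays were too small for a search for outlying samples. Of the 43, 20 kept an adjusted p under 0.05 whichever array was omitted. The number kept lay between 22 (without cov tip replicate 2) and 37 (without cov base replicate 1).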

How the results depend on the processing

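The number of probe sets called at the base, 881, was 490 with the 4 base arrays fitted alone and between 440 (without wild type base array 1) and 873 when single arrays were left out. It lay between 655 and 924 under the other alternatives, with 890 under the replicate block. The base minus tip difference had 342 calls, 139 with no filter, 227 without the variance trend, 326 with the replicate block and between 111 and 465 when single arrays were left out. It moved by over 1.5 times without either tip array of cov (145 and 111) or wild type (164 and 198), cov base array 2 (204) and wild type base array 1 (142) or 2 (212). The tip had 290 calls, 299 with the replicate block, and between 116 and 350 when single arrays were left out, with 116 and 132 without cov tip array 1 and 2 and 181 and 176 without wild type tip array 1 and 2. The cause was not tested. Same-numbered arrays correlated at -0.04 to 0.16 in their deviations, so the numbers were not taken to pair samples. Of 96 named genes called at the base, 66 kept their call with the 4 base arrays alone, 89 with the block, 85 under median centring, 86 under quantile normalization, 72 with no filter and 79 without the variance trend. Leaving out single arrays kept between 60 and 89 of them. The 11 calls lost under median centring were those of BGLU46, GH9B8, TBL38, GTR1, HL, MT1C, OPCL1, CLE41, TAAC, BCAT4 and GSTU27, with adjusted p between 0.0518 and 0.125.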

Other observations

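The share of tested genes called at the base lay between 3.87% on chromosome 3 and 5.15% on chromosome 1. Whether calls cluster along the chromosomes was not tested, and 4.53% of all tested genes were called. Of 2901 pairs of neighbouring genes that were both tested, 9 had both genes called, 7 of them in the same direction. Among these were AT1G29660 and AT1G29670 (log2 differences 1.43 and 3.53), AT4G31130 and AT4G31140 (-1.02 and -1.20), and THE1, HL and AT5G54400 (1.03, 0.83 and 0.83). Of 3 called genes with a second tested probe set, AT2G30600 (-1.34 and -1.04) and AT2G35450 (-2.38 and -0.93) were called by both, and AT4G31080 (-0.63 and -0.60) by the first alone.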
